A study of Mus musculus with 4 samples.

Results

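The 10 genes described here encode enzymes of mitochondrial fatty acid beta-oxidation: Acadvl, Acadl, Acadm and Acads (acyl-CoA dehydrogenases), Hadha and Hadhb (the trifunctional protein), Echs1, Hadh, Eci1 and Etfdh. They were taken by name as a pathway and were located through the accession printed for each probe on the array. They are 10 of the 19751 named genes on the array, and each was measured by 1 of its 39429 gene probes.

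The cells were C2C12, a clonal mouse line derived from muscle satellite cells, studied as proliferating myoblasts on the 3rd day of proliferation. Palmitate cultures received 0.1 mmol/l of the saturated fatty acid palmitate, bound to albumin, for 48 h, whereas control cultures received ethanol and fatty acid-free albumin alone. The 4 biological replicates were hybridised to 4 two-colour Agilent arrays, each holding 1 palmitate culture in cyanine-5 and 1 control culture in cyanine-3, and all ratios are palmitate over control. The dyes were never swapped, so that dye and treatment cannot be told apart. The growth protocol gives 5% serum for both media, whereas the label of the control channel gives 10%, and the labels do not settle which holds.

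In beta-oxidation a fatty acyl-CoA is shortened in turns of a spiral, each of which runs through dehydrogenation, hydration, another dehydrogenation and thiolysis and releases acetyl-CoA. Acyl-CoA dehydrogenases of differing chain-length preference open each turn and hand their electrons to the electron transfer flavoprotein, while the membrane-bound trifunctional protein completes the turn for long chains and separate matrix enzymes complete it for shorter ones. In muscle the pathway supplies much of the energy used at rest and during endurance exercise, and many of its genes are known targets of the PPAR nuclear receptors.

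Across the arrays, 24169 of 39429 probes (61.3%) were tested, namely those with at least 1 channel well above background on every array. Between 61.9% and 70.7% of gene probes were well above background in the palmitate channel, against 57.6% to 64.0% in the control channel. The ratios of replicate 1 stood apart, with a correlation of -0.076 across probes with the mean of the other 3 arrays, against 0.68 to 0.77 among those 3, so values without it are given below. Of 8 myoblast markers, 8 were well above background on all arrays in palmitate cultures and 7 in control cultures. Of 7 markers of differentiated muscle, 6 were well above background on all arrays in palmitate cultures and 6 in control cultures. Their mean log2 ratios ran from -0.078 (Acta1) to 0.32 (Myh3). By contrast, 4 of 6 adipocyte markers (Adipoq, Plin1, Lep and Cfd) and 2 of 4 endothelial markers (Cdh5 and Tek) were at background in both. Fabp4 of the adipocyte list, Pecam1 and Kdr of the endothelial list and Csf1r of the macrophage list were well above background in both channels on all 4 arrays by at least 1 probe. Of 4 macrophage markers, 3 were found on the array, and none of those was at background throughout. Ptprc was well above background on 3 arrays in palmitate cultures and 2 in control cultures. By its brighter probe, Cidec of the adipocyte list was well above background on 4 arrays in palmitate cultures and 0 in control cultures. The brighter probe of Kdr had log2 ratios of 0.98 in replicate 1 and -1.33, -1.09 and -0.93 in replicates 2 to 4. Its dimmer probe was well above background on 0 arrays in either channel, with log2 ratios from 0.00032 to 0.16. The part of adipocyte, macrophage or endothelial cells in the results was not tested. In bulk RNA, a change in the share of cells that express a gene and a change in RNA per cell cannot be told apart.

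All 10 genes were well above background in both channels on all 4 arrays. Acadl, the long-chain acyl-CoA dehydrogenase, had the highest mean log2 ratio of the 10, at 0.87 ± 0.46 (SD, n = 4), and Acads, the short-chain enzyme, the lowest, at -0.55 ± 0.33 (SD, n = 4). The means of 9 of the 10 lay above 0, as did those of 52.0% of all tested probes, and the median of the 10 means was 0.14, against 0.0087 over all tested probes. None of the 10 passed an adjusted p of 0.05 in limma's moderated test over 4 arrays, where the call rate over all probes was 0%. At an unadjusted p under 0.05, Acadl and Hadha were higher and Acads was lower, that is 2 of 10 against 10.8% of all tested probes for higher values, and 1 of 10 against 11.1% for lower values.

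**Figure D1:**
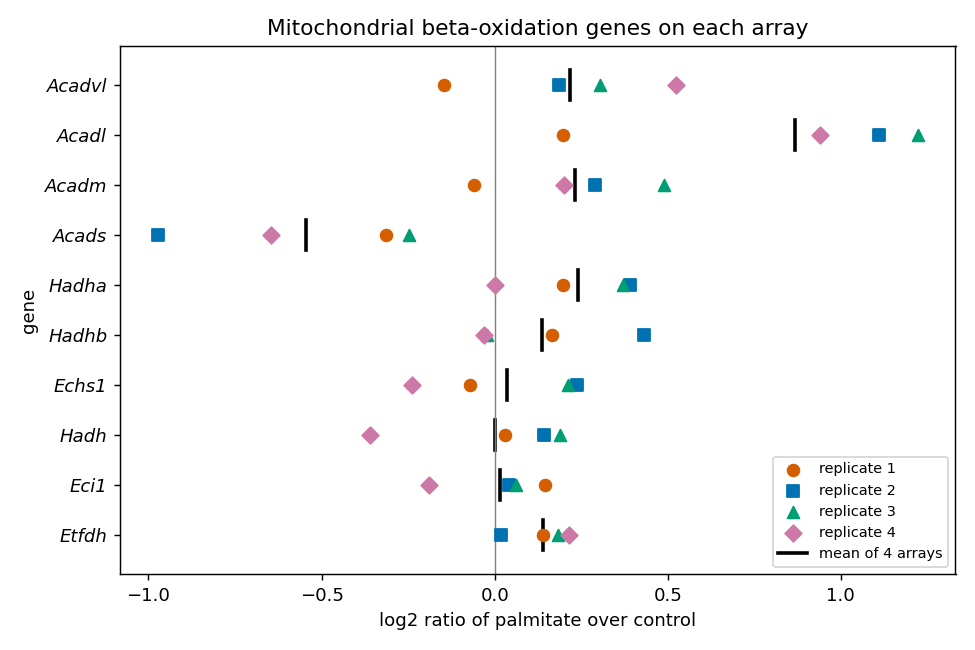
Log2 ratio of palmitate over control for each of the 10 genes, with 1 point per array and a black bar at the mean of the 4 arrays. Acadl lies highest and Acads lowest on every array, and replicate 1 gives the smallest Acadl ratio (0.20).

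The acyl-CoA dehydrogenases take the step that opens each turn, from the longest to the shortest chains in the order Acadvl, Acadl, Acadm and Acads. Acadl had normalised signals of 2202, 3829, 4256 and 4601 in palmitate cultures 1 to 4, against 1919, 1775, 1825 and 2396 in control cultures 1 to 4. The palmitate signal exceeded its paired control on every array, but the groups overlapped, because palmitate replicate 1 lay below control replicate 4. The log2 ratios of Acadl were 0.20, 1.11, 1.22 and 0.94, a mean fold of 1.82, with an adjusted p of 0.12 in limma. Only 0.281% of the tested probes had a higher mean ratio, and Acadl ranked 69 of 24169.

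Acads went the other way on all 4 arrays. Its normalised signals were 768, 609, 813 and 669 in palmitate cultures, against 956, 1195, 965 and 1046 in control cultures, so that every palmitate signal lay below every control signal. It was the only one of the 10 genes whose groups did not overlap, as was the case for 12.2% of all probes with a signal in every culture. Its log2 ratios were -0.32, -0.97, -0.25 and -0.65, a mean fold of 0.685, with an adjusted p of 0.13 in limma.

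Acadm, the medium-chain dehydrogenase, had signals of 5519, 8049, 7524 and 7219 in palmitate cultures, against 5748, 6579, 5355 and 6277 in control cultures. Its log2 ratios of -0.059, 0.29, 0.49 and 0.20 averaged 0.23 ± 0.23 (SD, n = 4; limma adjusted p = 0.27) and 0.14 without replicate 3. Acadvl, the very-long-chain dehydrogenase of the inner membrane, had log2 ratios of -0.15, 0.18, 0.31 and 0.52, averaging 0.22 ± 0.28 (SD, n = 4; limma adjusted p = 0.34) and 0.11 without replicate 4. The signals of Acadvl were 31958, 41074, 38173 and 42778 in palmitate cultures, against 35390, 36135, 30895 and 29777 in control cultures. Both lay slightly below 0 in replicate 1 and above 0 in the other 3 arrays, and palmitate and control signals overlapped for both.

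**Figure D2:**
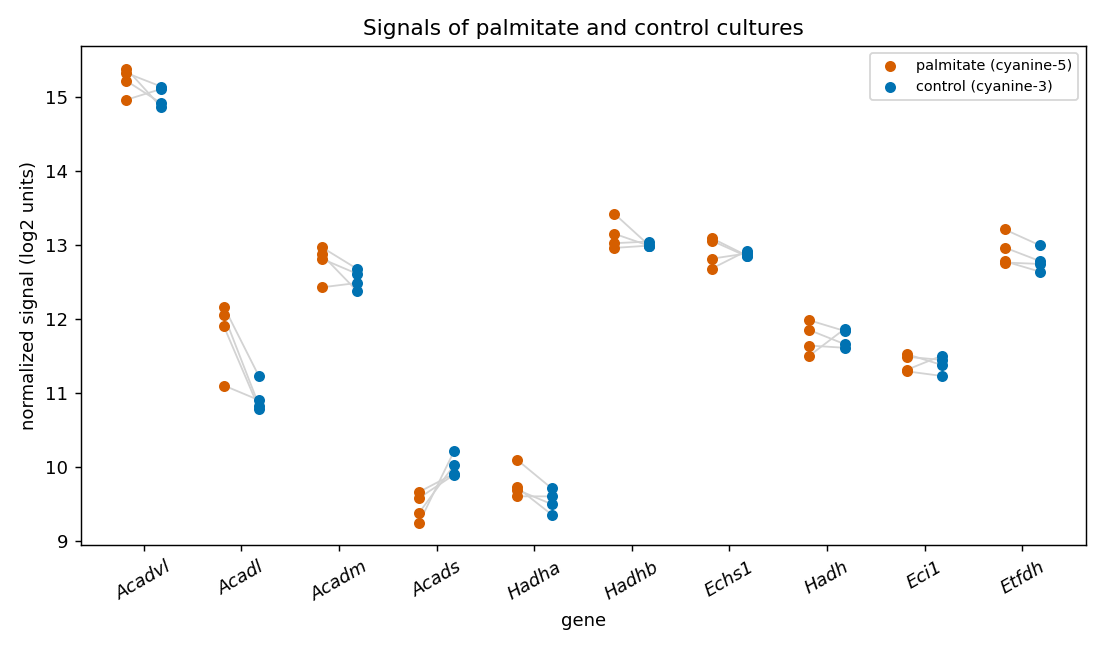
Normalised signal, in log2 units, of the palmitate and control culture of each array for the 10 genes, with 1 point per culture. Every palmitate signal of Acads (609 to 813) lies below every control signal (956 to 1195), whereas the 2 groups overlap for the other 9 genes.

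Within each array, the dehydrogenases could be set against one another without a change of scale between arrays. Acadl exceeded Acads by 0.51, 2.08, 1.47 and 1.59 log2 units on arrays 1 to 4, a mean of 1.41 ± 0.66 (SD, n = 4). It also exceeded Acadm by 0.64 ± 0.26 and Acadvl by 0.65 ± 0.31, each on 4 of 4 arrays (SD, n = 4). Acadm lay 0.78 ± 0.41 above Acads and Acadvl 0.76 ± 0.49 above it, also on 4 of 4 arrays, whereas Acadvl minus Acadm was -0.015 ± 0.23, with 1 array above 0. The order did not run evenly with chain length, since Acadvl and Acadm, on either side of Acadl in preference, did not differ beyond their spread while Acadl stood above both. Of 9 such differences computed among the 10 genes, 7 had the same sign on all 4 arrays. For these an exact two-sided sign-flip test gives 0.13, the smallest p it allows with 4 arrays. The 9 differences share genes, among them Acadl and Acads with the highest and lowest means, and are not independent. No such share was computed over other pairs of genes, so the counts have no background to be read against. The 95% interval of the mean difference, which assumes normal spread over arrays and is not adjusted for the 9 differences, excluded 0 for 6 of them. It ran from 0.37 to 2.46 for Acadl minus Acads, from -0.017 to 1.54 for Acadvl minus Acads and from -0.38 to 0.35 for Acadvl minus Acadm.

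**Figure D3:**
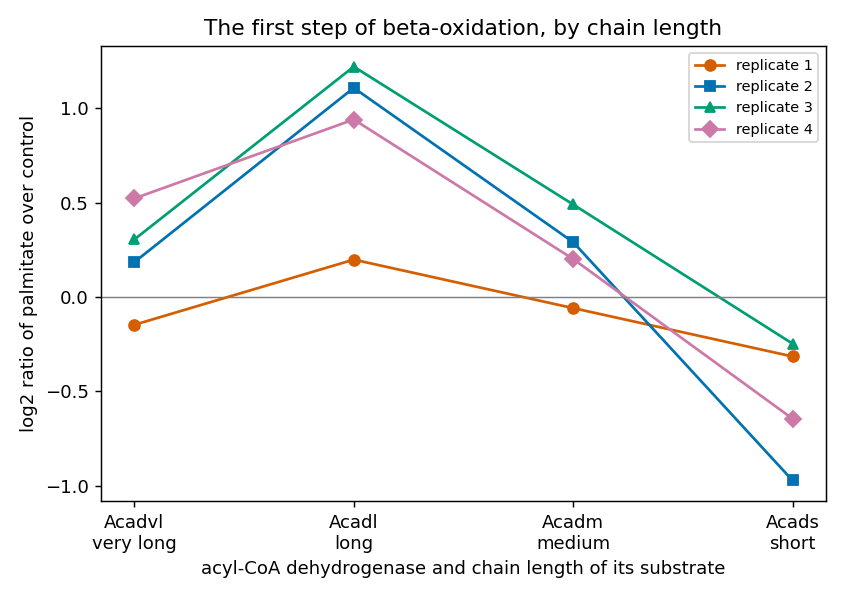
Log2 ratio, palmitate culture over control culture, for the 4 acyl-CoA dehydrogenases in order of chain length, from very long (Acadvl) to short (Acads), with 1 line per array. All 4 lines peak at Acadl and reach their lowest point at Acads, with a gap between them of 0.51 in replicate 1 and 1.47 to 2.08 in the others.

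The start regions of Acadl, Acads and Acadm are shown to compare the motifs they hold. Acadl and Acads, at the ends of the range, hold the same motif in differing numbers. Acadm, which lies between them, holds another, and a link between motifs and ratios was not tested. Each window runs from 250 bases before to 50 bases after the annotated start (RefSeq, GRCm38.p6), 5′ to 3′ on the strand of the gene, and all 10 genes were matched. Capitals mark GGGCGG, a motif bound by Sp1-type factors, or its complement CCGCCC, and AGGTCA, the core motif of many nuclear receptors, or its complement TGACCT. The window of Acadl lies at chr1:66863260-66863559 on the minus strand, that of Acads at chr5:115119297-115119596 on the minus strand and that of Acadm at chr3:153944594-153944893 on the minus strand.
Acadl: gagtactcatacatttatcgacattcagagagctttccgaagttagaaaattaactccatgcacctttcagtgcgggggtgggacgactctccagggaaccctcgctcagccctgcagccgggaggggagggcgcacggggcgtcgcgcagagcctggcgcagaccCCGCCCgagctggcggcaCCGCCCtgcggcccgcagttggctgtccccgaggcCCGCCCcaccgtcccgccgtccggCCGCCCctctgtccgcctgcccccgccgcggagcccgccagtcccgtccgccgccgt
Acads: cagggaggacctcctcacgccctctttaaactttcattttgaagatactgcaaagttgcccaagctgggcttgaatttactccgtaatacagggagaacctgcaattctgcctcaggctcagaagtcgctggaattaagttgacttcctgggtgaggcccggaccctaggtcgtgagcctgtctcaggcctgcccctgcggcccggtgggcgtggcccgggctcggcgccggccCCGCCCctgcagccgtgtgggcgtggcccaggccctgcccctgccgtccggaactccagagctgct
Acadm: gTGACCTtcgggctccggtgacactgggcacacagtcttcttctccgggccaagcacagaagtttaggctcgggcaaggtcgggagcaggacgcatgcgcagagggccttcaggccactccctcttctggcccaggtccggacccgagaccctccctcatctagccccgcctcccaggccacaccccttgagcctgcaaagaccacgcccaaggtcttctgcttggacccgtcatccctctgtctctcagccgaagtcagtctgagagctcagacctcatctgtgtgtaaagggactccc
The Acadl window had a GC content of 70.3% with 34 CpG and 4 matches to GGGCGG, that of Acads 62.7% with 17 CpG and 1 match, and that of Acadm 62.3% with 13 CpG and no match, against a median GC content of 52.7% over all windows. On either strand, GGGCGG was found in 8 of the 10 windows (not in Acadm or Acadvl) and in 35.7% of 32851 windows of the same length. The windows of Hadha and Hadhb overlap, and the Hadha match is also counted for Hadhb. The GC content of the 10 windows ran from 50.7% (Acadvl) to 70.3% (Acadl), and the share over all windows was not matched for it. AGGTCA was found in 3 of the 10 (Acadm, Acadvl and Echs1) and in 16.3% of all windows. The direct repeat of AGGTCA with a gap of 1 base, the PPAR type of element, which contains AGGTCA, was exact in 0 of the 10 and in 0.0396% of all windows. A match in letters is a description and does not show binding, and elements outside these windows were not searched.

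Hadha and Hadhb encode the alpha and beta subunits of the trifunctional protein, the alpha subunit holding the long-chain hydratase and 3-hydroxyacyl-CoA dehydrogenase and the beta subunit the thiolase. Hadha had signals of 831, 1101, 850 and 780 in palmitate cultures, against 724, 840, 657 and 780 in control cultures. Its log2 ratios of 0.20, 0.39, 0.37 and 0.0010 averaged 0.24 ± 0.18 (SD, n = 4; limma adjusted p = 0.22), with replicate 4 at the level of its control. Hadhb had log2 ratios of 0.16, 0.43, -0.022 and -0.031, averaging 0.14 ± 0.22 (SD, n = 4; limma adjusted p = 0.48) and 0.037 without replicate 2. Its signals were 9119, 11003, 8346 and 7985 in palmitate cultures, against 8136, 8153, 8477 and 8161 in control cultures. Both subunits were above 0 in replicates 1 and 2, and replicate 3 separated them, so that Hadha minus Hadhb was 0.10 ± 0.20 (SD, n = 4), within the spread between arrays.

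These subunit genes are shown by 1 sequence because they lie head to head: their starts are 272 bases apart on opposite strands and 228 bases are common to both windows. The Hadhb window lies at chr5:30155003-30155302 on the plus strand (GRCm38.p6, with the same motifs in capitals).
Hadhb: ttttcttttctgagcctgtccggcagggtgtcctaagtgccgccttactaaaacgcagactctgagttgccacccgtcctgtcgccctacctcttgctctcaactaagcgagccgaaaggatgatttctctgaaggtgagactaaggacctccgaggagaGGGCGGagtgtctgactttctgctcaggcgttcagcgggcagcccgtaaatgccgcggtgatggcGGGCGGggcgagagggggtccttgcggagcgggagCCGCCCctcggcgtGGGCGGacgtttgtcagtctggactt
It held 4 matches to GGGCGG or its complement and had a GC content of 60.7% with 24 CpG. The Hadha window, on the minus strand, held 1 match, which lies in the shared bases and is also a Hadhb match.

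Echs1, the short-chain enoyl-CoA hydratase, and Hadh, the medium- and short-chain 3-hydroxyacyl-CoA dehydrogenase, carry out in the matrix the steps that Hadha carries out for long chains. Echs1 had log2 ratios of -0.071, 0.24, 0.21 and -0.24, averaging 0.034 ± 0.23 (SD, n = 4; limma adjusted p = 0.87). Hadh had 0.030, 0.14, 0.19 and -0.36, averaging 0.00061 ± 0.25 (SD, n = 4; limma adjusted p = 1.00). The signals of Echs1 ran from 6584 to 8743 in palmitate cultures, against 7370 to 7774 in control cultures, and those of Hadh from 2914 to 4053 in palmitate cultures, against 3135 to 3740 in control cultures. Replicate 4 was the lowest array for both, and both means were far smaller than their spread. Hadha lay above them on 4 of 4 arrays, by 0.21 ± 0.058 over Echs1 and by 0.24 ± 0.088 over Hadh (SD, n = 4).

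Eci1, the isomerase that moves the double bond of unsaturated fatty acids into the position the spiral requires, had log2 ratios of 0.15, 0.042, 0.063 and -0.19, averaging 0.015 ± 0.14 (SD, n = 4; limma adjusted p = 0.94). Etfdh, which passes electrons from the electron transfer flavoprotein to ubiquinone, had log2 ratios of 0.14, 0.020, 0.18 and 0.21. Its mean of 0.14 ± 0.085 (SD, n = 4; limma adjusted p = 0.34) was above 0 on all 4 arrays and had the smallest spread of the 10 genes. The signals of Eci1 ran from 2514 to 2950 in palmitate cultures, against 2407 to 2915 in control cultures, and those of Etfdh from 6965 to 9493 in palmitate cultures, against 6394 to 8181 in control cultures. Acadl and Hadha were the other genes above 0 on all arrays, a pattern held by 15.7% of tested probes, and Acads alone was below 0 on all arrays, as were 14.5% of tested probes.

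Grouped by substrate, the long-chain enzymes (Acadvl, Acadl, Hadha and Hadhb) had median log2 ratios of 0.18, 0.41, 0.34 and 0.26 on arrays 1 to 4. The medium- and short-chain enzymes (Acadm, Acads, Echs1 and Hadh) had medians of -0.065, 0.19, 0.20 and -0.30. The long-chain median was the higher on each array, by 0.25, 0.22, 0.14 and 0.56, a mean of 0.29 ± 0.19 (SD, n = 4). Taken between the medians of the 4-array means, the difference was 0.21, and 0.13 without replicate 4. The enzymes of a group are not replicates, so no p is given for this difference. The median of all 10 genes was 0.085, 0.21, 0.20 and -0.015 on arrays 1 to 4, and the spread among the 10 was 0.17 in replicate 1 and 0.39 to 0.51 in the others (SD over genes), against 0.30 and 0.35 to 0.50 over all tested probes. Between arrays, the SD of the single genes ran from 0.085 (Etfdh) to 0.46 (Acadl), with a median of 0.23 against 0.20 over all tested probes.

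When replicate 1 was left out, Acadl and Acads had adjusted p values under 0.05 in limma, and neither had on 4 arrays. Replicate 1 was singled out by the same ratios that are tested here. The p values without it, here and below, can therefore be too small. Over replicates 2 to 4 alone, Acadl was higher in palmitate cultures by 1.09 ± 0.14 on the log2 scale (SD, n = 3; limma adjusted p = 0.0021). Over the same arrays Acads was lower, at -0.62 ± 0.36 (SD, n = 3; limma adjusted p = 0.028). Acadl also passed the fold of 1.6 set for a call, and Acads did not. That is 1 of 10 higher, against 8.78% of all tested probes, and 1 of 10 lower, against 9.22%. Acadm, at 0.33 ± 0.15, and Acadvl, at 0.34 ± 0.17, had adjusted p values of 0.060 and 0.061 (SD, n = 3; limma). Hadha had an adjusted p of 0.15, and the adjusted p of the other 5 genes ran from 0.33 (Etfdh) to 0.97 (Hadh). For Acads, the log2 ratio of replicate 1 (-0.32) lay within the range of its other arrays. Its unadjusted limma p was 0.0062 on 4 arrays and 0.0033 without replicate 1. Over all tested probes, 0 had a limma adjusted p under 0.05 on 4 arrays and 4352 without replicate 1. The adjusted p of a gene thus moved with the other probes as well as with its own values. Replicate 1 carries the same labels as the other arrays.

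**Figure D4:**
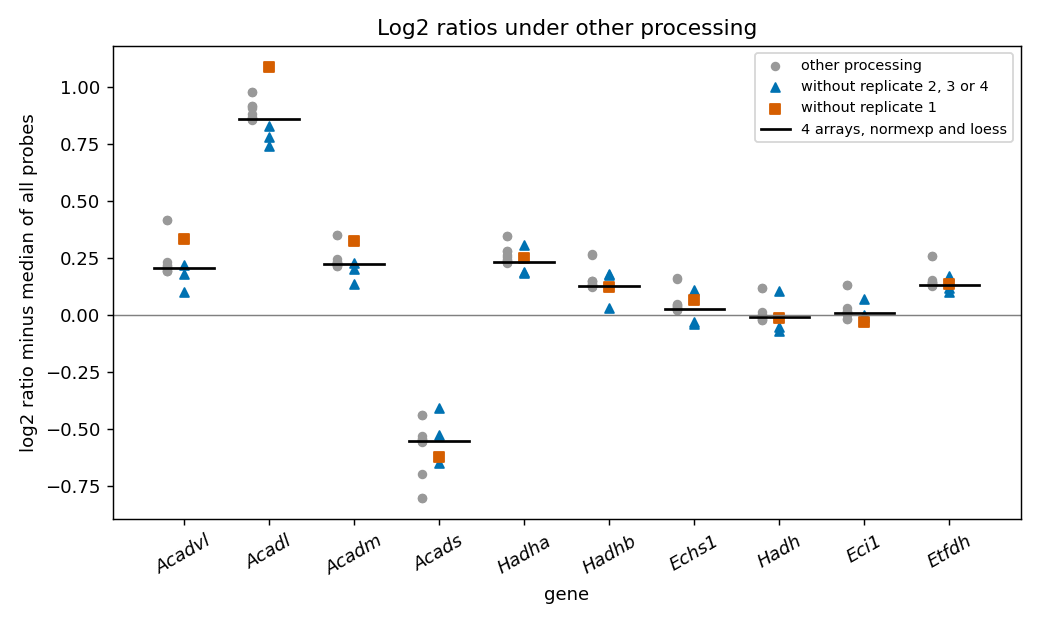
Log2 ratio of the 10 genes under each way of processing the arrays, each given relative to the median of all tested probes, with black bars for the 4 arrays after normexp and loess, grey points for other processing, triangles without replicate 2, 3 or 4 and squares without replicate 1. Acadl stays between 0.74 and 1.09 and Acads between -0.80 and -0.41.

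Other genes of mitochondrial beta-oxidation were taken as a list of 13, all of which were tested. The means of 8 lay above 0 and of 5 below, with a median of 0.072. None passed limma's adjusted p, and without adjustment 3 of 13 were higher and 0 were lower at the same threshold, against 10.8% and 11.1% of all tested probes. The highest of the 13 was Cpt1a, which loads long-chain acyl groups onto carnitine at the outer membrane: its signals were 4403, 5693, 4487 and 4260 in palmitate cultures, against 1726, 2066, 1900 and 2119 in control cultures, with no overlap and a mean log2 ratio of 1.27 ± 0.19 (SD, n = 4; limma adjusted p = 0.11). Slc25a20, the carnitine-acylcarnitine carrier that follows it, had a mean of 0.37 ± 0.36, and Acad11, another acyl-CoA dehydrogenase, 0.45 ± 0.22 (SD, n = 4).

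Cpt2, which returns the acyl group to CoA inside the mitochondrion, had the lowest mean of the list, at -0.27 ± 0.40 (SD, n = 4), with 0.32 in replicate 1 and -0.40, -0.52 and -0.50 in replicates 2 to 4. A dimmer Cpt2 probe averaged -0.063 ± 0.077 (SD, n = 4). Without replicate 1, Acad11 (limma adjusted p = 0.012), Cpt1a (0.0022) and Slc25a20 (0.042) were higher and Cpt2 (0.016) was lower. Those are 3 of 13 higher, against 8.78% of all tested probes, and 1 of 13 lower, against 9.22%. Acaa2, the matrix thiolase for shorter chains, averaged 0.22 ± 0.20, and Etfa and Etfb, the subunits of the electron transfer flavoprotein that Etfdh oxidises, averaged 0.12 ± 0.19 and 0.16 ± 0.18 (SD, n = 4). The other 6 genes (Eci2, Acad9, Hsd17b10, Acad12, Decr1 and Acad10) had means between -0.12 and 0.072.

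**Figure D5:**
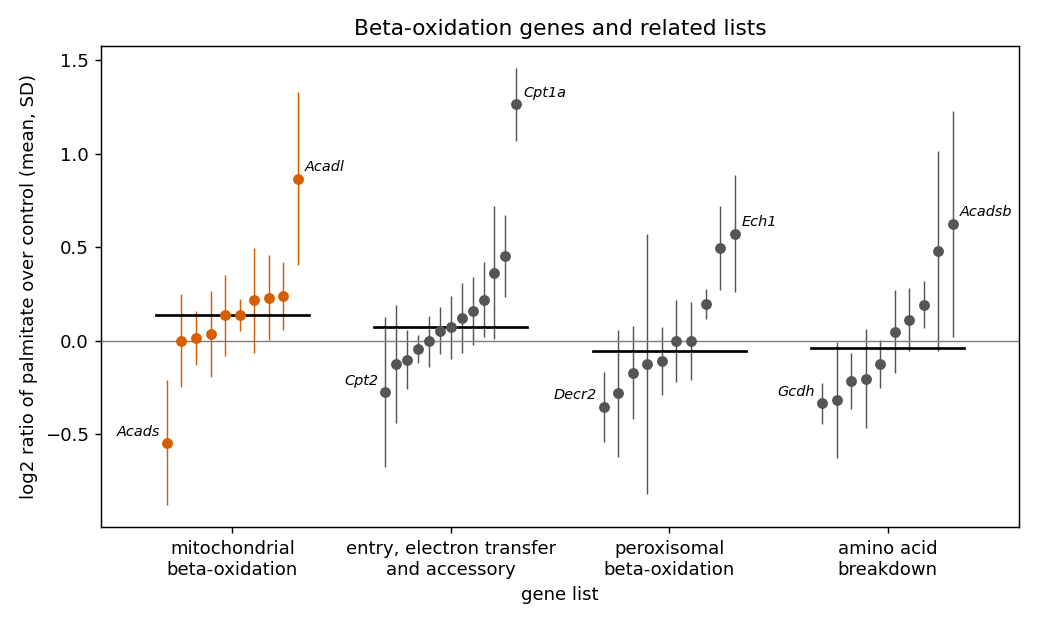
Mean log2 ratio of palmitate over control, over 4 arrays, of each gene of the 10 enzymes and of the lists of remaining mitochondrial, peroxisomal and amino acid breakdown genes, with 1 point per gene, error bars of 1 SD over arrays and a black bar at the median. The medians are 0.14, 0.072, -0.055 and -0.037, and the widest range lies in the mitochondrial genes, up to Cpt1a at 1.27.

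Related reactions run in peroxisomes and in the breakdown of amino acids. Of 12 peroxisomal genes, 10 were tested, and their median was -0.055, with none past limma's adjusted p and, without adjustment, 3 of 10 past the threshold as higher and 1 of 10 as lower, against the same 10.8% and 11.1% of all probes. Their highest mean was that of Ech1, a dienoyl-CoA isomerase, at 0.57 ± 0.31, and their lowest that of Decr2, the peroxisomal dienoyl-CoA reductase, at -0.35 ± 0.19 (SD, n = 4). All 10 genes of amino acid breakdown were tested, with a median of -0.037, none past the adjusted p and, without adjustment, 2 of 10 past it in each direction. Acadsb, the short/branched-chain dehydrogenase of isoleucine breakdown, was highest at 0.63 ± 0.60, and Gcdh, the dehydrogenase of lysine and tryptophan breakdown, lowest at -0.33 ± 0.11 (SD, n = 4). Without replicate 1, 2 of 10 peroxisomal genes (Ech1 and Hsd17b4) and 1 of 10 amino acid genes (Acadsb) were higher at the adjusted p, against 8.78% of all tested probes, and 1 peroxisomal gene (Acox3) was lower, against 9.22%. The call on Acox3 rests on its brightest probe, at -0.67, -0.39 and -0.33 in replicates 2 to 4, whereas its other probe had 0.022, 0.14 and -0.13.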

How the data were processed

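RNA of 4 palmitate and 4 control cultures was measured on 4 two-colour Agilent arrays of 1 slide and 1 scan. The authors deposited scanner files of Feature Extraction 10.7.3.1 with spot intensity, processed signals, a log10 ratio of red over green, and flags, and a value table that held log2 ratios of the processed signals. Median spot intensities were background-corrected (normexp, offset 50) and loess-normalized within arrays, with control and outlier spots at weight 0, outlier spots (899 values) left out and spots of a probe averaged. Single-channel signals were taken after Aquantile scaling. The mean log2 ratio was tested against 0 with limma 3.58.1 (R 4.3.3) across all 24169 probes well above background, with Benjamini-Hochberg adjustment and a call at an adjusted p under 0.05 and a fold of at least 1.6. The channels of an array entered as a pair. A gene with several probes was represented by its brightest. Signals and the number of arrays limit the precision. The scripts were tested on simulated data in which all 4 arrays shared the same changes, unlike replicate 1 here. Those changes were larger than the mean log2 ratios of the 10 enzymes. The genes named were the 10 enzymes, all genes of the mitochondrial list, and the highest and lowest of the other lists. The 10 enzymes and the lists were chosen with earlier results of these data known. The alternatives were other sources of signal, dye normalizations, filters, pairings, variance models and tests, and each array left out.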

Additional observations from a re-analysis of the deposited data

Results flagged for a closer look

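Among 23 mitochondrial genes and 9 medians of enzyme classes checked for a single array far from the others, 2 genes were found, and chance alone gives about 1 in 20. Cpt2 had a log2 ratio of 0.32 in replicate 1, against -0.40 to -0.52 in the other 3 arrays. Acad9 had 0.24 in replicate 3, and the other 3 arrays lay close to one another. None of the 10 enzymes was among the 2.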

How the results depend on the processing

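With 4 arrays of 1 dye orientation, 0 probes passed the test in limma (without adjustment, 2601 passed 0.05 as higher and 2682 as lower), and this count moved with the processing. The processed signals and the authors' value table each gave 13 higher, and the limit of 50% on the coefficient of variation gave 2 higher. Channels treated as unpaired (no replicate block) gave 16 higher and 13 lower. The methods' t-test gave 1 higher and 2 lower (1880 higher and 2341 lower unadjusted, 10 of either direction at the adjusted p and any fold). It was run on the signals normalised here, without the limit on the coefficient of variation, and is no rerun of the authors' processing. Signals not scaled between arrays were used in alternatives chosen after seeing the data. On these the limit on the coefficient of variation left 12725 probes and gave 140 higher and 199 lower. Of the 10 enzymes 1 passed, with limma adjusted p values of 0.026 for Acadl and 0.042 for Acads. At the adjusted p and any fold, 512 of the 12725 probes were higher and 652 lower. On the same signals, over 24169 probes, the methods' t-test gave 0 (409 higher and 941 lower unadjusted). Without dye normalization, 20322 probes were higher and 26 lower and 9 of the 10 enzymes passed, with a median of 1.25 where the median of all probes was 0.99. Median centring in place of loess gave a median of 0.44 where that of all probes was 0.18. Leaving out each array in turn gave 0 to 555 probes higher, 0 to 753 lower and 0 to 1 of the enzymes, and the calls came without replicate 1.

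Acads turned to 0.55 without dye normalization, which is 0.44 below the median of all probes (-0.44). Hadh turned to -0.0022 without background correction, to -0.0088 with the processed signals and the value table, and to -0.0091, -0.047 and -0.062 without replicates 1, 2 and 3 (0.12 without replicate 4). Eci1 turned to -0.00098 with the processed signals and the value table, and to -0.029 and -0.00088 without replicates 1 and 3 (0.084 without replicate 4). Echs1 turned to -0.033 and -0.025 without replicates 2 and 3 (0.13 without replicate 4). Among values that kept their sign, leaving out 1 array moved Acadvl to 0.34 (replicate 1) and 0.11 (replicate 4), Hadhb to 0.037 (replicate 2), Acadm to 0.14 (replicate 3), Echs1 to 0.070 (replicate 1), Eci1 to 0.0060 (replicate 2) and the long-chain minus shorter-chain difference to 0.13 (replicate 4), against 0.22, 0.14, 0.23, 0.034, 0.015 and 0.21 on all 4 arrays. The cause was not tested. Over 17 alternatives for each of the 10 enzymes, 144 values kept direction and side of the threshold, 13 passed it newly and 13 changed sign. Each enzyme had 1 probe, so another choice of probe gave no other value.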

Other observations

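Across 13712 genes, those whose 4 log2 ratios lay nearest to Acadl were Vim, Ckap2 and Col3a1, at a root mean square difference of 0.14, 0.14 and 0.16. Vim, an intermediate filament protein, had 0.34, 1.28, 1.27 and 1.10 on arrays 1 to 4. Ckap2, a protein of the mitotic spindle, had -0.0018, 1.10, 1.02 and 0.96, and Col3a1, a fibrillar collagen, had 0.068, 0.90, 1.07 and 1.08. All 3 were low in replicate 1 and near 1 in the other arrays.

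For some genes of the mitochondrial list, probes differed. A dimmer probe of Cpt1a had a mean log2 ratio of 0.64 ± 0.28, against 1.27 ± 0.19 for the brightest. A dimmer probe of Etfa gave -0.29 ± 0.18 where the brightest gave 0.12 ± 0.19, and a dimmer probe of Decr1 gave 0.22 ± 0.16 where the brightest gave -0.10 ± 0.16 (SD, n = 4 each). A dimmer probe of Acad12 gave 0.044 ± 0.14, against -0.044 ± 0.073 for the brightest.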
